A study of Mus musculus with 6 samples.

Results

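Ccr7, S1pr1, Cxcr3, Cxcr4, Cxcr6, Itga4, Itgae and Itgal encode receptors and integrin chains that direct where CD8+ T cells go. They were chosen by name as homing and chemokine receptors and not by a rule on their values, although earlier results of these data were known. They are 8 of the 54446 genes listed for each library. RNA sequencing was run on CD8+ T cells purified by negative selection from spleens of C57BL/6 mice that were 8 weeks old, with 2 libraries in each of 3 groups. The Unstimulated group was lysed fresh. The Control group was stimulated with plate-bound anti-CD3 and with anti-CD28 antibody for 72 h without magnets, and the SMF group was stimulated alike while the plates stood on permanent magnets giving a static magnetic field of 0.3 T. The comparisons ask what stimulation did to these transcripts and whether field exposure added a difference. Levels are in FPKM, the fragments assigned to a gene scaled to the length of its transcripts and to the size of the library. Orders and ratios of different genes are of these listed values only, and the limit on strands given below can differ between genes. The sources used here do not say which libraries came from separate mice or cultures, so p-values measure the spread between these libraries, which may in part be technical.

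As background, a circulating naive T cell enters lymph nodes with CCR7 and the integrin LFA-1, and leaves again along a gradient of sphingosine 1-phosphate that it senses with S1PR1. After antigen contact T cells pass through a phase in which exit is blocked, and effector cells later use inflammatory chemokine receptors such as CXCR3 and CXCR6 and the α4 integrins to reach tissue. The transcription factors KLF2 and FOXO1 are known to maintain S1pr1 in resting T cells, and CD69 binds S1PR1 and takes it off the surface.

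The receptors CCR7, S1PR1, CXCR3, CXCR4 and CXCR6 span the membrane with 7 helices and signal through G proteins; at the inner end of the third helix they carry an acidic residue, an arginine and an aromatic residue, the switch that couples to the G protein. The 45 bases of coding sequence round these 3 codons are shown to place the members in this family, read from GENCODE M21 transcripts on GRCm38 with the 9 bases of the switch in capitals. The codons begin at position 153 of the Ccr7 reading frame, 141 in S1pr1, 147 in Cxcr3, 135 in Cxcr4 and 142 in Cxcr6.
Ccr7: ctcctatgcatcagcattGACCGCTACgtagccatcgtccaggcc
S1pr1: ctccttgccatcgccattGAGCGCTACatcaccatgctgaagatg
Cxcr3: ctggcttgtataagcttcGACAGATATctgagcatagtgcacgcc
Cxcr4: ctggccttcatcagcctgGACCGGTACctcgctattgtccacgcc
Cxcr6: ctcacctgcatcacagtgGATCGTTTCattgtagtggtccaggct

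The integrin α chains carry beside the membrane, on the inner side, a short run of glycine, a pair of phenylalanines, lysine and arginine that holds the β chain. For Itgal no match was listed in the reading frame searched, so no stretch is shown. The 51 bases round the run are given for Itga4 (codons 1003 to 1007) and Itgae (codons 1140 to 1144), with its 15 bases in capitals.
Itga4: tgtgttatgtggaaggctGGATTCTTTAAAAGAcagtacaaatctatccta
Itgae: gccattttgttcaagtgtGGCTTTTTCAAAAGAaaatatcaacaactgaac

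The libraries differed in ways that touch the values. Summed over transcripts, coverage was 64.4 to 172 Mb in the Unstimulated and Control groups and 227 to 259 Mb in SMF. Folder dates in the file headers place replicate 1 of the Unstimulated and Control groups in June 2017, replicate 2 of both in November 2017 and both SMF libraries in October 2018. Libraries that share a folder date are called a run here, although the headers do not say which step the date marks. The field and the run cannot be told apart. Protein-coding genes held 49.1% to 50.5% of summed FPKM in the Unstimulated and Control groups and 68.7% to 69.2% in SMF. The purified cells carried CD8 T cell transcripts in every library. Summed FPKM over 8 markers was 793 and 898 in Unstimulated, 507 and 662 in Control and 1107 and 1017 in SMF libraries. In Control against Unstimulated 1 marker was called higher (Cd5) and 2 lower (Cd8a, Cd8b1), beside 12.3% and 12.6% of all genes tested. In SMF against Control 3 were called higher (Cd8a, Cd3d, Cd5) and 0 lower, beside 12.5% and 5.72%. The Unstimulated libraries also held transcripts of other cells. There 9 B cell markers summed to 292 and 315 FPKM, against 45.4 to 73.4 in the stimulated libraries, where Ebf1 and Blk were listed at 0. Most of the stimulated sum was Ighm, at 25.0 and 36.9 FPKM in Control and 68.5 and 65.1 in SMF libraries. In SMF against Control, Ighm was called higher (log2 fold change 1.11) and Cd79a lower (-1.78). The 4 NK cell markers summed to 67.1 and 78.3 FPKM in Unstimulated libraries against 0 in all 4 stimulated libraries. Over 9 myeloid markers the sum was 165 and 209 FPKM against 47.0 to 90.3, with Lyz2, Adgre1 and Csf3r above 0 in both Unstimulated libraries and listed at 0 in all stimulated ones. S100a8 and Fcgr1 were listed at 0 in every library, and Cd14 and S100a9 in all but 1 Unstimulated library. Csf1r, whose exons face those of Hmgxb3 on the other strand, was at 63.9 and 68.5 FPKM in fresh cells and 41.1 to 53.8 in stimulated cells and was not called. Cst3 was at 37.6 and 57.0 FPKM in fresh, 0 and 36.5 in Control and 45.6 and 31.5 in SMF libraries, and was not called either. Csf1r and Cst3 made up the myeloid sum in the stimulated libraries. The 6 erythroid markers, with Hbb-bs and Hbb-bt listed at 0 throughout, summed to 1.51 to 21.8 FPKM. Cd4 was at 4.68 FPKM or below, and the 3 CD4 T cell markers summed to 11.8 to 29.0 FPKM. In bulk RNA, fewer cells of a type and less RNA per cell cannot be told apart.

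The listed coverage was also uneven between strands. Among 180 genes of 1 exon that lie, for at least 0.9 of their length, within an exon of a multi-exon protein-coding gene on the other strand, 80 to 92 pairs per library had a summed coverage above 2. In these pairs the facing exon held a median of 96.5% to 98.8% of the coverage in each of the 6 libraries. The kit marks strand, and the headers record that fragments were assigned with the option for a first read in the sense of the transcript. Reads from a gene that are listed on the opposite strand do not enter its FPKM, so at these loci the listed level of the protein-coding gene is a small part of the coverage. Of the 8 genes only Itga4 faces an annotated exon, of Cerkl, so how far the other 7 levels are affected was not tested. Nor was it tested whether the option matches the strand that the kit marks; if it did not, the listed levels of all genes, the 8 included, would be what was left after most unspliced reads had been listed on the other strand.

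**Figure D1:**
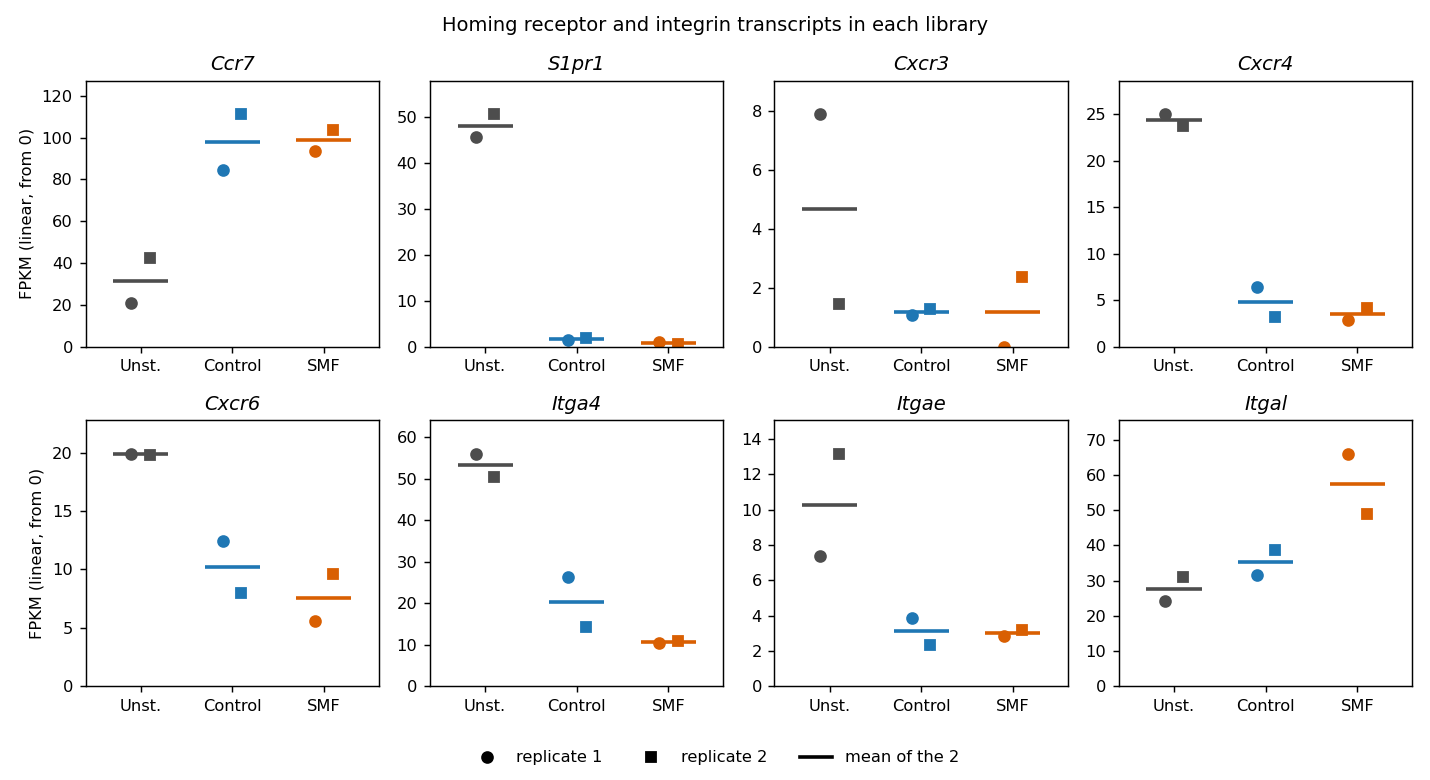
Listed level in FPKM (linear axes from 0) of each of the 8 genes in every library; circles are replicate 1, squares replicate 2 and bars the mean of the 2, by group. S1pr1 fell from 45.6 and 50.6 FPKM to 2.0 or less in the stimulated libraries, Ccr7 lay at 84.5 or more in all 4 of them, and Itgal was highest in the SMF libraries.

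Ccr7, the lymph node receptor for CCL19 and CCL21, stands at chr11:99144196-99155077 on the minus strand (GRCm38). Its level was 20.7 and 42.2 FPKM in fresh cells, 84.5 and 111 in Control cells and 93.8 and 104 in SMF cells. All 4 stimulated libraries lay above both unstimulated ones, and the SMF values fell within the range of the Control values. The rise was 3.19-fold on the scale of FPKM + 1 (log2 fold change 1.68, SE 0.39, adjusted p = 0.0531, limma with Benjamini-Hochberg adjustment). Ccr7 moved from places 5 and 3 among the 8 genes in the Unstimulated libraries to place 1 in every stimulated library.

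S1pr1, the receptor for sphingosine 1-phosphate that guides exit from lymphoid organs, stands at chr3:115710433-115715072 on the minus strand. It was listed at 45.6 and 50.6 FPKM in fresh cells, at 1.5 and 2.0 in Control cells and at 0.972 and 0.551 in SMF cells. Each group lay wholly below the one before it. Against the Unstimulated libraries the Control value was 17.9-fold lower (log2 fold change -4.16, SE 0.45, adjusted p = 0.00964, limma with Benjamini-Hochberg adjustment), the largest change of the 8. The size depends on the pseudocount: the log2 fold change was -4.72 with 0.1 and -2.98 with 5 in place of 1. The depth behind the low values was small: mean coverage of the transcript was 0.126 to 0.434 in the stimulated libraries against 4.12 and 8.80 in the Unstimulated ones. The ratio of Ccr7 to S1pr1 was 0.454 and 0.834 in fresh cells, 56.4 and 55.6 in Control cells and 96.4 and 188 in SMF cells.

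Cxcr4, the receptor for CXCL12 that draws cells to bone marrow, stands at chr1:128588199-128592293 on the minus strand. Its level fell from 25.0 and 23.7 FPKM to 6.44 and 3.17 in Control cells, and was 2.92 and 4.14 in SMF cells. Fresh and stimulated libraries did not overlap, while Control and SMF libraries did. The Control value was 4.55-fold lower than the Unstimulated one (log2 fold change -2.19, SE 0.47, adjusted p = 0.0433, limma with Benjamini-Hochberg adjustment). Mean coverage of its main transcript in the Control libraries was 0.541 and 0.687, on 1 of its 2 exons.

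Cxcr6, the receptor for CXCL16 found on effector and tissue-resident cells, stands at chr9:123806475-123811760 on the plus strand. It was at 19.9 and 19.8 FPKM in fresh cells, 12.4 and 8.00 in Control cells and 5.56 and 9.62 in SMF cells. The fresh libraries lay above all others, but the difference of Control from Unstimulated was 1.90-fold and did not pass the call (log2 fold change -0.92, 95% interval -1.98 to 0.14). SMF against Unstimulated did pass (log2 fold change -1.32, SE 0.44), with an adjusted p of 0.0738 from limma with Benjamini-Hochberg adjustment, but the call was lost in 3 of 16 alternatives, without either Unstimulated library or the first SMF library (-0.97). The 2 listed transcripts took turns: the one ending at position 123811756 held 100% and 98.9% of the gene's FPKM in the Unstimulated libraries, 0% in both Control libraries, and 0% in one SMF library but 100% in the other, so that the isoform given differed between replicates of the same group.

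Cxcr3, the receptor for the interferon-induced chemokines CXCL9, CXCL10 and CXCL11, stands at chrX:101731535-101734269 on the minus strand. It was listed at 7.88 and 1.44 FPKM in fresh cells, 1.09 and 1.29 in Control cells, and 0 and 2.36 in SMF cells. Replicates of the Unstimulated and SMF groups lay further apart than the group means of Control and SMF, and mean coverage was 0.711 or less in every library. No comparison passed the call, and for Control against Unstimulated the 95% interval of the log2 fold change ran from -3.28 to 1.10. With this spread neither a change nor its absence could be read for Cxcr3.

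Itga4, the α4 chain that pairs with β1 to bind VCAM-1 or with β7 to bind MAdCAM-1, stands at chr2:79255426-79333123 on the plus strand. Its level was 56.0 and 50.5 FPKM in fresh cells, 26.2 and 14.2 in Control cells and 10.5 and 10.9 in SMF cells. The 3 groups did not overlap, in descending order from fresh to Control to SMF. The Control value was 2.67-fold lower than the Unstimulated one (log2 fold change -1.42, SE 0.39, adjusted p = 0.0770, limma with Benjamini-Hochberg adjustment). The call was lost without the first Unstimulated library (-1.34, unadjusted p = 0.0586 from limma) and without the second Control library (-0.99). Along its 13978 exon bases, 1124 (8.04%) face exons of Cerkl on the other strand. Cerkl, a ceramide kinase-like gene, was listed at 1054 and 1249.6 FPKM in fresh cells, 169 and 112 in Control and 39.1 and 35.3 in SMF libraries. Its coverage lay on the 7 exon records that overlap Itga4, with a mean of 3.27 to 245, whereas its 28 other exon records had a mean of 0 to 0.152. The level listed for Cerkl therefore sits over Itga4 exons, on the opposite strand, and it fell across the groups in the same order as Itga4 itself; its part in the Itga4 values was not tested.

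Itgae, the αE chain CD103 that pairs with β7 and binds E-cadherin on epithelium, stands at chr11:73090583-73147446 on the plus strand. It was at 7.35 and 13.2 FPKM in fresh cells, 3.86 and 2.33 in Control cells and 2.82 and 3.18 in SMF cells. Fresh libraries lay above all stimulated ones, and the stimulated groups overlapped. The Control value was 2.71-fold lower than the Unstimulated one (log2 fold change -1.44, SE 0.52, unadjusted p = 0.0307 and adjusted p = 0.142, limma with Benjamini-Hochberg adjustment). This call was lost in 7 of 17 alternatives, with log2 fold changes from -1.44 to -0.89. It was lost with a pseudocount of 5, with the run as a term (unadjusted p = 0.110 from limma) and with only the 2 groups in the fit. The call was also lost without the second Unstimulated, the second Control, the first SMF or the second SMF library. Mean coverage of the longer transcript was 0.246 and 0.395 in the Control libraries, where 4 and 9 of its 31 exons had any, so the level in Control cells rests on little depth.

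Itgal, the αL chain CD11a that forms LFA-1 with β2 and binds ICAM-1 and ICAM-2, stands at chr7:127296260-127335138 on the plus strand. Its level was 24.3 and 31.0 FPKM in fresh cells, 31.5 and 38.8 in Control cells and 66.1 and 49.0 in SMF cells. The groups did not overlap, in ascending order, although the higher Unstimulated and the lower Control library differed little. Control exceeded Unstimulated by a log2 fold change of 0.34 (95% interval -0.44 to 1.12), which did not pass the call. SMF exceeded Unstimulated 2.04-fold (log2 fold change 1.03, SE 0.32, adjusted p = 0.0645, limma with Benjamini-Hochberg adjustment), a value that dropped to 0.55 on the log2 scale once libraries were scaled to 1 sum over protein-coding genes. This call was lost in 5 of 16 alternatives. Between its 6 listed transcripts the FPKM was split differently in replicates, the transcript starting at 127296260 holding 69.6% in one Control library and 3.64% in the other.

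Among fresh cells the order of listed levels was Itga4 and S1pr1 at the top, whose values overlapped, then Ccr7, Itgal and Cxcr4, which overlapped as well, then Cxcr6, and last Itgae and Cxcr3. Control cells had the order Ccr7, Itgal, Itga4, Cxcr6, Cxcr4, Itgae, S1pr1 and Cxcr3, where only Cxcr4 and Itgae overlapped among neighbours. SMF cells had the same order of the first 4, followed by Cxcr4 and Itgae, which overlapped, and by Cxcr3 and S1pr1, which overlapped also. The sum over the 8 genes was 207 and 232 FPKM in fresh cells, 168 and 181 in Control cells and 183 and 183 in SMF cells.

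**Figure D2:**
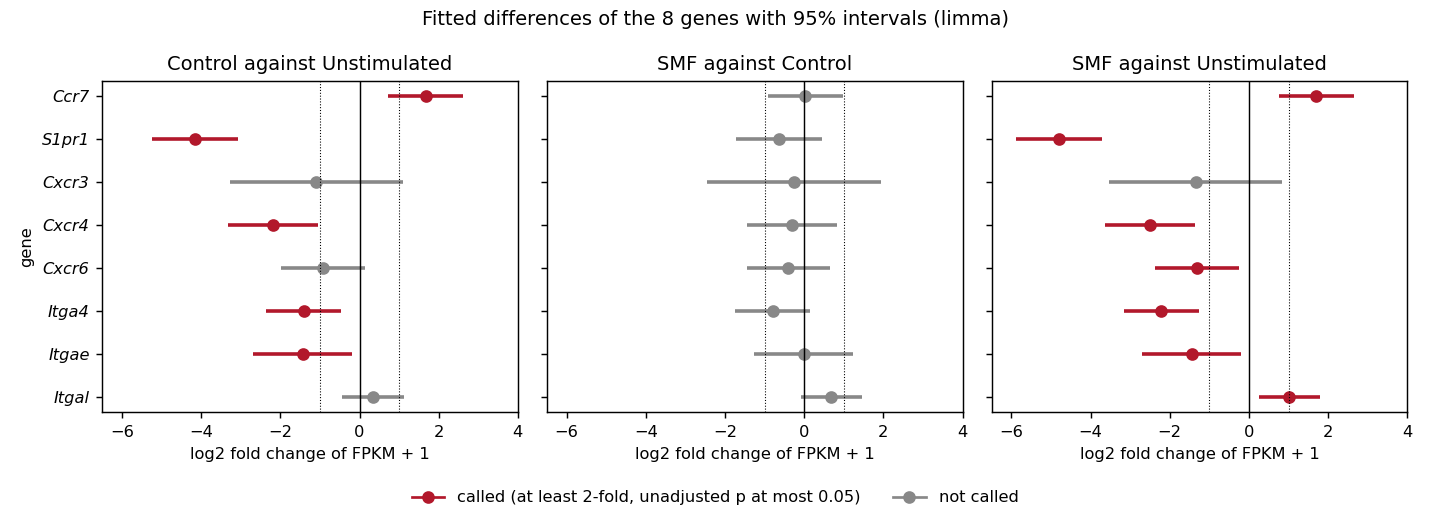
Fitted log2 fold change of FPKM + 1 with its 95% interval for the 8 genes in the 3 comparisons; red marks a call, grey no call, and dotted lines a 2-fold change. Control against Unstimulated has 5 calls, SMF against Control has 0 and SMF against Unstimulated has 7.

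A gene was called where its fold change was 2 or more and its unadjusted p did not exceed 0.05. In Control against Unstimulated, 1 of the 8 genes was called higher (Ccr7) and 4 lower (S1pr1, Cxcr4, Itga4, Itgae), beside 12.3% of 14991 tested genes called higher and 12.6% called lower. Of these, S1pr1 and Cxcr4 had an adjusted p under 0.05. With the shared run as a term their adjusted p was 0.155 and 0.170 (limma with Benjamini-Hochberg adjustment), and with the replicate block that of Cxcr4 was 0.0623. The median log2 fold change was -1.25 for the 8 genes and -0.05 for all genes tested, a description, because the 8 were chosen with earlier results of these data known. Split by run, the log2 difference in the June and November 2017 pair was 1.98 and 1.38 for Ccr7, -4.22 and -4.11 for S1pr1, -1.81 and -2.57 for Cxcr4, -1.07 and -1.76 for Itga4 and -0.78 and -2.09 for Itgae. It was -0.64 and -1.21 for Cxcr6, 0.36 and 0.32 for Itgal and -2.09 and -0.09 for Cxcr3. These differences come from the same libraries as the fold changes and average to them. Their shared direction is therefore no separate support for the calls, and its share over all genes was not computed. Without the second Control library 3 of the 8 were called. The fall of the B, myeloid and NK cell markers given above runs in the same direction between these groups, with 7 of 7 tested B cell, 2 of 5 myeloid and 3 of 4 NK cell markers called lower, and its part in the lower receptor levels was not tested.

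In SMF against Control, 0 of the 8 genes were called by limma and 0 had an unadjusted p of at most 0.05, beside 12.5% of all genes tested called higher and 5.72% called lower. The median log2 fold change was -0.28 for the 8 genes against 0.32 for all genes tested. Only Itgal, S1pr1 and Itga4 had groups that did not overlap. Among the 91 tested genes of the other trafficking lists, 40 were higher and 15 lower without overlap. The share over all genes tested was not computed for this or the other comparisons, so absence of overlap is a description and no result about the 8. Itgal was higher in both SMF libraries (log2 fold change 0.69, 95% interval -0.09 to 1.46, unadjusted p = 0.0748 from limma), and Itga4 was lower in both (-0.80, interval -1.74 to 0.14, unadjusted p = 0.0837 from limma). Over the alternatives that left out no single library, the Itgal value ran from 0.34 to 0.83 and that of Itga4 from -1.14 to -0.64. For Ccr7 the log2 fold change was 0.03 with an interval of -0.92 to 0.97, so differences of nearly 2-fold either way lie inside it. S1pr1 differed by -0.65 (interval -1.73 to 0.44), Cxcr6 by -0.40, Cxcr4 by -0.31, Cxcr3 by -0.25 and Itgae by -0.01. Shifting every library to 1 median turned the split over all genes from 1868 higher and 857 lower to 877 higher and 1441 lower, moved the median from 0.32 to -0.02 and brought Itga4 past the call (log2 fold change -1.14); without the second Control library Itga4 was called as well, at -1.22.

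In SMF against Unstimulated, 2 of the 8 were called higher (Ccr7, Itgal) and 5 lower (S1pr1, Cxcr4, Cxcr6, Itga4, Itgae), beside 22.4% and 14.8% of all genes tested. This comparison shares its fresh libraries with the first. The log2 fold changes were -4.81 for S1pr1, -2.50 for Cxcr4, -2.21 for Itga4 and 1.70 for Ccr7, and these 4 had an adjusted p under 0.05 from limma with Benjamini-Hochberg adjustment. Without the first SMF library 4 of the 8 were called.

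The genes that regulate or partner the 8 were read from lists of other trafficking genes. Klf2, which encodes the factor that maintains S1pr1, was at 52.7 and 76.5 FPKM in fresh cells, 0 and 0.524 in Control and 0 and 2.56 in SMF libraries. It showed a log2 fold change of -5.71 in Control against Unstimulated (adjusted p = 0.0134, limma with Benjamini-Hochberg adjustment). Foxo1 was at 9.74 and 10.5 FPKM in fresh cells, 4.27 and 4.48 in Control and 2.78 and 5.54 in SMF libraries, with no overlap between fresh and stimulated cells and no call in Control against Unstimulated. Foxo1 exons face those of Gm20402 on the other strand, listed at 677 to 1041 FPKM in fresh and 167 to 428 FPKM in stimulated libraries.

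Cd69, whose product holds back S1PR1, was at 62.1 and 79.4 FPKM in fresh, 44.4 and 47.6 in Control and 78.0 and 83.6 in SMF cells. Its SMF libraries exceeded the Control ones without overlap, by a log2 fold change of 0.80 that is under the 2-fold limit.

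The integrin β chains did not move together. Itgb7, partner of both Itga4 and Itgae, fell from 89.7 and 79.3 FPKM to 36.8 and 28.0 in Control cells and was 32.9 and 20.5 in SMF cells, a call for Control against Unstimulated (log2 fold change -1.36). Itgb1, the other partner of Itga4, was at 37.4 and 33.1 FPKM in fresh cells, 51.8 and 42.0 in Control and 71.2 and 61.4 in SMF cells, none of it called. The ratio of Itga4 to Itgb1 thus went from 1.5 and 1.52 in fresh cells to 0.506 and 0.337 in Control and 0.147 and 0.177 in SMF cells, while that of Itga4 to Itgb7 was 0.319 to 0.712 over the 6 libraries. Itgb2, partner of Itgal, was at 58.8 and 71.7, 43.9 and 34.9, and 51.8 and 65.6 FPKM in the 3 groups, and the ratio of Itgal to Itgb2 was 0.414 and 0.432 in fresh cells and 0.719 to 1.27 in stimulated cells.

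**Figure D3:**
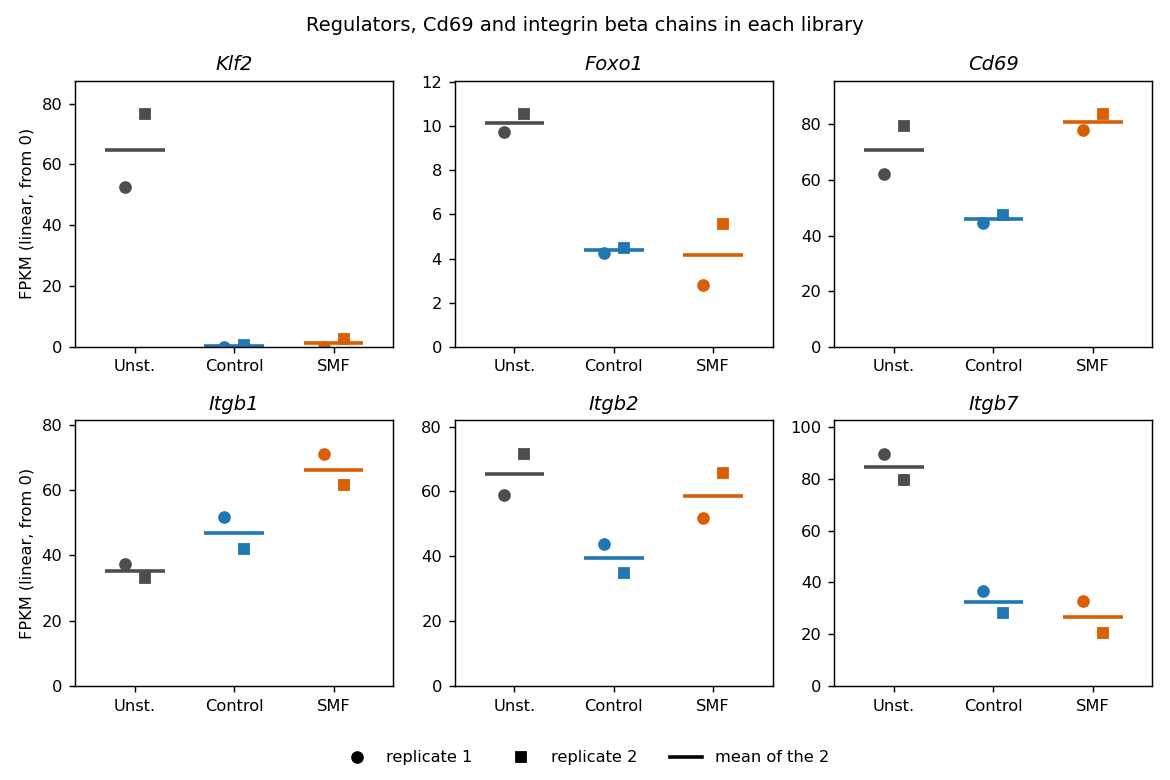
Listed level in FPKM (linear axes from 0) of 2 regulators, Cd69 and the integrin β chains in every library; circles are replicate 1, squares replicate 2 and bars the mean of the 2. Klf2 is at 2.56 FPKM or below in all stimulated libraries, Itgb7 lies lower in all of them than in fresh cells, and Itgb1 lies higher.

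Over the 131 genes of the 6 trafficking lists, 91 were abundant enough to test. In Control against Unstimulated 4 were called higher and 26 lower, where the shares over all genes tested were 12.3% and 12.6%, with a median log2 fold change of -0.79 against -0.05 for all genes tested. Exons of 39 of the 131 genes face an exon on the other strand, which leaves their values uncertain; among the genes named in the text these are Ccr9, Cxcr5, Ptger4, Rasgrp2, Rgs16, Klf3, Foxo1, Vcam1 and Icam1. Among 7 tested chemokine receptors 3 were called lower and 0 higher. Ccr9, the receptor for gut homing, was at 26.3 and 27.7 FPKM in fresh cells and 4.16 or less in stimulated cells, and Cxcr5, the B cell follicle receptor, at 16.2 and 17.8 FPKM and 3.92 or less. B cells carry Cxcr5 too, and their markers fell between the same groups; the part of B cells in this fall was not tested.

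Of 7 tested lipid and other guidance receptors, 2 were called lower in Control, beside 12.6% of all genes tested, among them Gpr18 (20.3 and 29.3 FPKM in fresh, 4.98 and 12.8 in Control cells). Gpr183, the oxysterol receptor known as EBI2, was the single trafficking gene called lower in SMF against Control, with 14.9 and 17.8 FPKM in Control and 2.55 and 7.88 in SMF cells. Ptger4, a prostaglandin E2 receptor, was called higher there, from 2.55 and 8.11 to 13.1 and 13.8 FPKM. Of 14 tested integrins and selectins 1 was called higher in Control, Cd44, the hyaluronan receptor used as an activation marker, and 6 lower. The shares over all genes tested were 12.3% and 12.6%. Cd44 went from 6.11 and 6.62 FPKM in fresh cells to 18.3 and 23.4 in Control and 45.0 and 53.5 in SMF cells, and was called in both steps. Cd226, an adhesion receptor of the immunoglobulin family, fell from 21.3 and 17.4 FPKM to 3.64 and 7.87 in Control cells and rose to 26.7 and 24.4 in SMF cells, both calls.

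The signalling genes that switch integrins on, or that dampen receptor signals, gave 2 higher and 3 lower calls out of 35 tested in Control against Unstimulated, fewer than the 12.3% and 12.6% over all genes tested would give, so these counts are no result about the list. Rasgrp2, the exchange factor that activates RAP1 ahead of LFA-1, was at 78.0 and 98.9 FPKM in fresh cells and 1.33 or less in every stimulated library. Rgs16, which shortens G protein signals, went the other way, from 2.75 and 0 FPKM to 71.4 and 50.1 in Control cells and 119.7 and 118 in SMF cells. Arrb2, β-arrestin 2, which desensitises chemokine receptors, fell from 96.0 and 78.3 FPKM to 5.75 and 15.6 in Control cells. In SMF against Control 7 of these 35 were called higher and 0 lower, in a comparison that leaned the same way over all genes tested (12.5% higher and 5.72% lower). Among them were Rhoh (5.19 and 3.53 FPKM in Control, 20.0 and 10.2 in SMF cells), Gnai3 (21.1 and 20.7, then 53.4 and 68.0 FPKM), a G protein α subunit used by chemokine receptors, and Rap1a (19.1 and 26.4, then 65.5 and 60.3 FPKM). With libraries scaled to 1 sum over protein-coding genes, the calls over all trafficking lists in SMF against Control went from 12 higher and 1 lower to 4 higher and 3 lower.

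Of 20 tested regulators of homing receptors, 1 was called higher and 7 lower in Control against Unstimulated, beside 12.3% and 12.6% of all genes tested. In SMF against Control 0 of them were called, beside 12.5% called higher and 5.72% called lower over all genes tested. Besides Klf2 the regulators called lower in Control include Klf3, from 28.9 and 22.0 to 1.99 and 5.55 FPKM, and Tcf7, the factor TCF1 of naive and memory cells, from 95.1 and 148 to 20.0 and 33.5 FPKM. Among the ligands of the 8 receptors, 5 of 8 tested were called lower in Control, beside 12.6% of all genes tested. Vcam1, the ligand of α4β1 on stromal and myeloid cells, was at 23.6 and 20.2 FPKM in fresh cells and listed at 0 in all stimulated libraries. Icam2 and Icam1, ligands of LFA-1, went from 9.87 and 9.95 FPKM and from 14.7 and 13.2 FPKM in fresh cells to 0 and 0.813 and to 2.64 and 6.17 in Control cells, and were called higher again in SMF cells at 6.79 and 7.94 and at 12.6 and 12.5 FPKM.

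**Figure D4:**
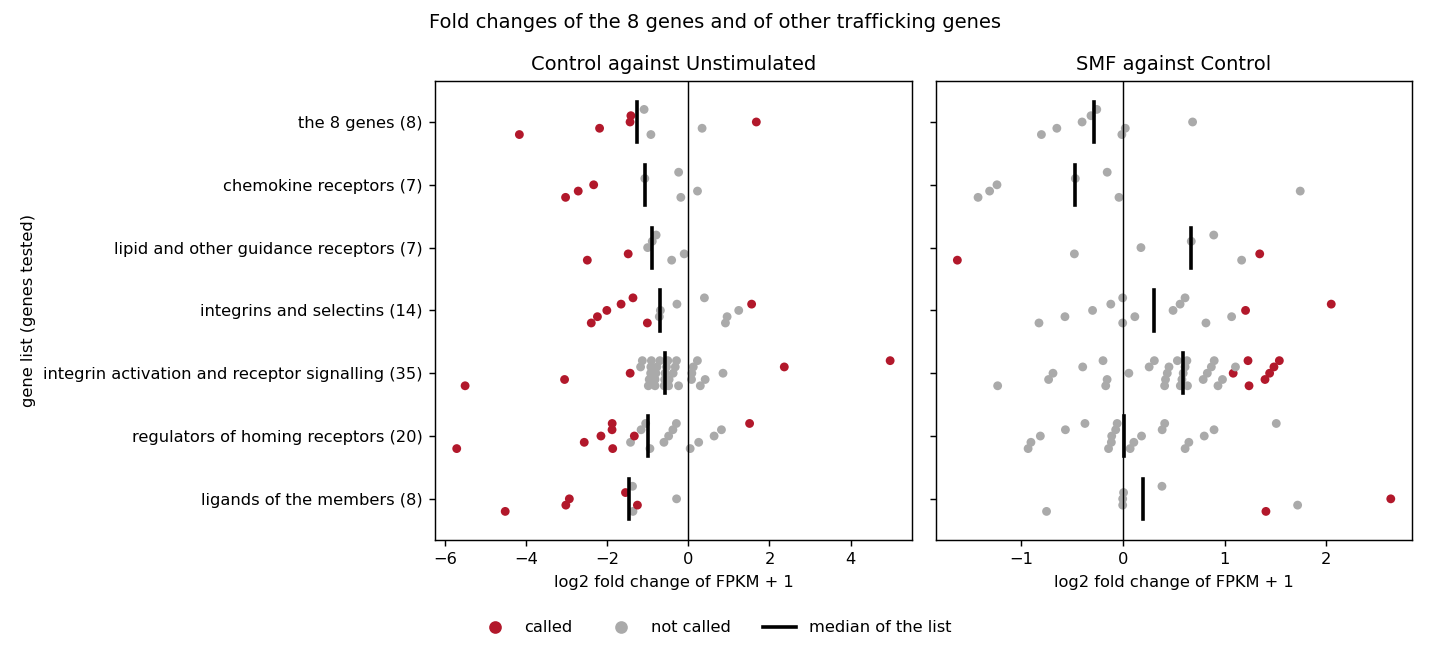
Log2 fold change of FPKM + 1 (linear axes) for the 8 genes and for the tested genes of 6 trafficking lists, in Control against Unstimulated and in SMF against Control; each point is a gene, red where called, and black bars are list medians. The medians of all lists lie below 0 on the left, and on the right the 8 genes hold no call.

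The promoter windows of Cxcr4 and Itga4 are printed because, of the 4 matched, they hold letters bound by KLF factors. KLF factors bind the letters CACCC, or GGGTG on the other strand, and FOXO factors bind TGTTTAC, which reads GTAAACA on the other strand. Of 32851 RefSeq promoter windows of 250 bases before the transcription start, 52.0% hold the KLF letters and 3.17% the FOXO letters, counted on both strands. The Cxcr4 window holds 1 copy of the KLF letters and that of Itga4 holds 4, in capitals, and the Cxcr3 and Cxcr6 windows hold 0; no copy of the FOXO letters is in these 4 windows. With the KLF letters in Cxcr4 and Itga4 but not in Cxcr3 and Cxcr6, the 4 windows lie near the 52.0% over all windows. These are matches of letters, not binding sites, and a part of KLF2 in the levels was not tested. The sequences are RefSeq's, on GRCm38.p6, at chr1:128592300-128592549 on the minus strand for Cxcr4 and chr2:79255176-79255425 on the plus strand for Itga4. Of the 8 genes, Ccr7, S1pr1, Itgae and Itgal were not matched to a window.
Cxcr4: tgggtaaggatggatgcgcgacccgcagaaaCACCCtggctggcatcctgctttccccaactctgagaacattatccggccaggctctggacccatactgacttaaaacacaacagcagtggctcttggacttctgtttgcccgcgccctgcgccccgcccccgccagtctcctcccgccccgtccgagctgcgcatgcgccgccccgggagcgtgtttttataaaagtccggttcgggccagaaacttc
Itga4: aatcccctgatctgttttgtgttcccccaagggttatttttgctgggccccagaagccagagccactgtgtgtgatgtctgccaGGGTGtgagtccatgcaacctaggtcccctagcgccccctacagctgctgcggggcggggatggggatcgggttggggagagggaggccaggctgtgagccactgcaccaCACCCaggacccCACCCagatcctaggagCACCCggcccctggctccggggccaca

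As a description over the 6 libraries, with no test, the protein-coding gene whose log2 level ran most like that of S1pr1 was Rasgrp2 (Pearson r = 0.9996), followed by Rere (0.997) and Mylpf (0.994). For Ccr7 they were Rad54l (0.995), Fndc9 (0.993) and Xbp1 (0.992), and for Cxcr4 Ets1 (0.993), Wrap73 (0.992) and Ube2h (0.992). For Cxcr6 they were Il7r (0.991), the receptor chain for interleukin 7, Commd1 (0.990) and Rbms1 (0.982), and for Cxcr3 Sp110 (0.981), Snrnp48 (0.953) and Azi2 (0.949). Itga4 ran most like Star (0.998), Kri1 (0.994) and Scamp3 (0.993), Itgae like Mphosph8 (0.994), Ccnh (0.991) and Sh3bp5 (0.983), and Itgal like Itm2a (0.996), Kmt5a (0.994) and Psmb1 (0.992). With 3 groups of 2 libraries, any genes that differ between fresh and stimulated cells correlate: 145 of the 4773 genes searched reached r of 0.95 with Ccr7 and 127 with S1pr1, while 2 did with Cxcr3. Exons of 9 of these 24 genes face an exon on the other strand. Among the 8 themselves, Cxcr4 and Itga4 ran most alike (r = 0.966), followed by Cxcr4 and S1pr1 (0.958), and Ccr7 and Cxcr4 ran most opposite (-0.930).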

How the data were processed

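RNA was prepared with a stranded total RNA kit for small inputs. The authors trimmed reads (Trimmomatic 0.36), aligned them with HISAT2 to mm10 and deposited 1 StringTie 1.3.5 transcript file per library, made on GENCODE M19 without new transcripts; other versions are not given in the sources used here. The deposited values are FPKM, TPM and coverage per transcript, normalized by StringTie, with no read counts, so depth is known only as coverage. The authors' series table of FPKM values was not used, because its 3 value columns could not be tied to single libraries.

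FPKM was summed over the transcripts of a gene. The 14991 genes whose mean reached 1 FPKM were fitted on log2(FPKM + 1) with limma 3.58.1 (R 4.3.3, variance trend, 3 groups); fold changes on this scale understate low genes. A call is a fold change of at least 2 with an unadjusted p of at most 0.05, as in the study's methods; adjusted p-values are Benjamini-Hochberg over all 14991 genes. The fit was tested on simulated data. No library pair held identical values. Same-numbered libraries correlated by 0.096 (Unstimulated, Control), 0.021 (Control, SMF) and 0.030 (Unstimulated, SMF) in their deviations. The first pairing shares folder dates in the headers. The replicate block left the counts of called members at 5, 0 and 7. Exon overlaps were found with bedtools 2.31.1.

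The 8 genes, the gene lists and the markers were chosen with earlier results of these data known. Named beside them were Klf2, Foxo1, Cd69 and the β chains; from each trafficking list up to 3 called genes of largest change, averaging 5 FPKM or more and without overlap between groups, for Control against Unstimulated and SMF against Control; and for each member the 3 protein-coding genes averaging 10 FPKM or more and most correlated with it. P2ry8, Adrbk1, Hobit and Ccl21c were not matched. Some genes of these lists are not reported here by name. Alternatives changed the pseudocount, filter, scaling, unit, variance model, block, run and libraries used.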

Additional observations from a re-analysis of the deposited data

How the results depend on the processing

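The call of S1pr1, Cxcr4 and Ccr7 in Control against Unstimulated and in SMF against Unstimulated kept its direction and side of the threshold under every alternative run. Of 389 alternative values for single members, 356 kept direction and side of the threshold, 21 lost and 3 gained the call, and 9 changed sign, all 9 in SMF against Control. There Ccr7 turned to -0.32 with libraries shifted to one median and -0.31 with one sum over protein-coding genes, and Itgae to 0.11 with gene TPM; over the fits without 1 library Ccr7 ranged from -0.17 to 0.22, Cxcr3 from -1.13 to 0.62, Cxcr4 from -0.73 to 0.11 and Itgae from -0.28 to 0.27. Members called in SMF against Control numbered 1 (Itga4) with libraries shifted to one median and 1 with one sum over protein-coding genes. Without 1 library they numbered 0 to 1 there, 3 to 5 in Control against Unstimulated and 4 to 7 in SMF against Unstimulated. Trafficking genes called in SMF against Control numbered 7 with one sum over protein-coding genes and 7 to 14 without 1 library, the lowest without the first SMF library and 8 without the second, against 13. The replicate block gave 5, 0 and 7 members and 30, 13 and 30 trafficking genes, and changed no member's call. The cause of these shifts was not tested. Calls over all genes tested shifted under the same settings. In SMF against Control they went from 1868 higher and 857 lower to 931 and 1307 with one sum over protein-coding genes, and fewer were called without either SMF library. The shifts in these counts are therefore no result about the members or the trafficking genes. Calls at an adjusted p under 0.05 over all genes in Control against Unstimulated went from 1271 to 6 with only the 2 groups in the fit and to 0 without either Control library or with the run as a term, and in SMF against Unstimulated from 3537 to 0 without either SMF library. Depth, known only as coverage, limits Cxcr3 throughout and S1pr1, Cxcr4 and Itgae in stimulated cells. It also limits Itga4 in the first Control library, where 7 of 28 exons of its main transcript had coverage. For Ccr7 in the first Unstimulated library, 1 of 3 exons had coverage, with a mean of 1.87 over the transcript.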
